A study of Rattus norvegicus with 9 samples.

Results

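The genes described here act in mitosis, as kinases and cyclins that start it, proteins that build the spindle and the kinetochores, checkpoint proteins, and proteins that part the sister chromatids and the daughter cells. The list of 58 rat gene symbols was given by name, with earlier results of these data known, and its rule used no measured value. A gene was measured if a probe carried a RefSeq accession of that gene. This held for 45 of the 58 genes, out of 26905 genes or unnamed accessions with a probe on the array. The array had no probe that could be named for Cdc25c, Plk4, Melk, Bub1b, Cenpe, Spc24, Kif4a, Anln, Ect2, Top2a, Ncapg, Ncaph and Mki67, which are not analysed here.

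Prostates of male Sprague Dawley rats, 6 weeks old at the start, were studied in 3 groups with 3 arrays each. Sham rats underwent a sham operation for castration and received corn oil by subcutaneous injection and distilled water by mouth. BPH rats were castrated and received subcutaneous dihydrotestosterone (3 mg/kg) daily for 4 weeks, with distilled water by mouth, as a model of benign prostatic hyperplasia (BPH). BPH+ghrelin rats had the same castration and dihydrotestosterone, and rat ghrelin (20 nmol/kg) by gavage daily for the last 2 weeks, according to the methods of the study, while a legend gives another dose and another route. Ghrelin is a hormone of the stomach that acts through the receptor GHSR. The BPH model thus combines loss of the testes with replacement by 1 androgen, and no group received ghrelin without it. RNA came from prostate tissue and not from sorted cells, so that more dividing cells and more mRNA per dividing cell cannot be told apart in any value given here.

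In most tissues of an adult animal few cells divide, and the mRNAs of mitotic genes are made mainly in the G2 and M phases of the cell cycle. Their transcription is held back in resting cells by the DREAM complex, which binds the cell cycle genes homology region (CHR) in their promoters, and is switched on by MYBL2 (B-Myb) and FOXM1, often together with the factor NF-Y at CCAAT boxes. Cyclin-dependent kinase 1 (CDK1) with cyclin B then drives entry into mitosis, the spindle checkpoint delays separation until all chromosomes are attached, and the anaphase-promoting complex ends mitosis by degradation of cyclin B and securin.

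Promoters of 50 of the 58 genes, and of 37 of the 45 measured genes, were found by symbol in a RefSeq table (assembly GRCr8) that covers 250 bases before and 50 bases after each gene start. Foxm1, Ccna2, Aurkb, Incenp, Tpx2, Ube2c, Racgap1 and Pbk were not matched. The letters of the CHR (TTTGAA) were searched on both strands and occurred in 26 of the 37 promoters (70.3%), compared to 18.1% of all 27457 promoters of this length in the table. CCAAT occurred on either strand in 29 of 37 (78.4%; all promoters, 37.7%), and both motifs in 22 of 37 (59.5%; all promoters, 7.25%). Matches of both motifs shared bases in 2 of the 50 promoters, those of Cdca8 and Mki67. TAAACA, a core that forkhead factors can bind, occurred on either strand in 6 of 37 (16.2%; all promoters, 13.7%). Of 64 promoters of other mitotic genes, TTTGAA was found in 26 (40.6%), CCAAT in 34 (53.1%) and both in 15 (23.4%), and of 30 promoters of DNA replication genes in 3 (10.0%), 19 (63.3%) and 1 (3.33%). Neither motif was found in 4 of the 37 promoters, those of Aurka, Bub1, Kif18a and Kif2c. A match is a description of letters and does not show a bound site. The sequences given are those of Cks2 and Kif22, in which BPH+ghrelin did not overlap with either other group, of the mitotic kinases Plk1 and Cdk1, and of Kif2c as 1 of the 4 with neither motif. Capitals mark TTTGAA and CCAAT, or TTCAAA and ATTGG where they lie on the other strand, and each sequence runs 5′ to 3′ on the strand of the gene.
Cks2, chr17:13727470-13727769, minus strand: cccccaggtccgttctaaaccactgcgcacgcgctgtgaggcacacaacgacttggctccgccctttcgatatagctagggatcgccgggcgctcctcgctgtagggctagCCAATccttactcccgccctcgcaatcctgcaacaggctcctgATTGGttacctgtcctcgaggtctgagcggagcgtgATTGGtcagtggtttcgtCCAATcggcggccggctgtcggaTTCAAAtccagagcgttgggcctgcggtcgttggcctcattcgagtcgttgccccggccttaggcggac
Kif22, chr1:191080829-191081128, minus strand: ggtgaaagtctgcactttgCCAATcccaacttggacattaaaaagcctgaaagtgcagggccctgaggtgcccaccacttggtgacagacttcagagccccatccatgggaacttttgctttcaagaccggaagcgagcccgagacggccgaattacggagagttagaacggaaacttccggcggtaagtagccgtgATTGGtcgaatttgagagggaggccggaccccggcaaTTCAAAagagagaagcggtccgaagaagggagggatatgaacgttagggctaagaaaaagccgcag
Plk1, chr1:186147408-186147707, plus strand: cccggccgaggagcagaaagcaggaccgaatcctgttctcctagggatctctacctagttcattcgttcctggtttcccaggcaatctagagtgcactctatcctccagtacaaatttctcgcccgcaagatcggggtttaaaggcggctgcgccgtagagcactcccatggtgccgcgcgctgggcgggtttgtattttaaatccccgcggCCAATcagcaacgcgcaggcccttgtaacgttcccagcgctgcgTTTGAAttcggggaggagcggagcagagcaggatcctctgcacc
Cdk1, chr20:19265043-19265342, plus strand: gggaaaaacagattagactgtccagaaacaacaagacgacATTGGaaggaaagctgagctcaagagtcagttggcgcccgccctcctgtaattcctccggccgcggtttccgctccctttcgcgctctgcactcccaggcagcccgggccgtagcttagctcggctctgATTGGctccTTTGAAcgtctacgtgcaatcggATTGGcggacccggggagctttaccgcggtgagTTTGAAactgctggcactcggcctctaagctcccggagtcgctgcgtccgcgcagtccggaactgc
Kif2c, chr5:135899163-135899462, minus strand: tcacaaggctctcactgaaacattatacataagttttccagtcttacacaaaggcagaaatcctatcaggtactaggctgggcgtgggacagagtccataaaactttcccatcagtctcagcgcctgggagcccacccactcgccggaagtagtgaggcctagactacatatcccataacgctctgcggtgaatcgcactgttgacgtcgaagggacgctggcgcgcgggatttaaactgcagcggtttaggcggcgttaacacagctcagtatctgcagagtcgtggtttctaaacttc
In Cks2, the CHR letters begin 19 bases before the gene start and 4 CCAAT boxes lie upstream of them. In Kif22 they begin 16 bases before it, while in Plk1 they begin 7 bases after it. Cdk1 has 2 CHR matches and 3 CCAAT boxes.

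Some features of the arrays bear on all values below. Arrays with the same scan time in the scanner files were taken to share a slide, which the sample labels do not state. By this rule, the 3 BPH arrays and BPH+ghrelin 1 shared a slide. BPH+ghrelin 2 and 3 shared another with sham 1 and 2, and sham 3 was alone on the third slide. On each array, the 75th percentile of the raw signal was between 327 (sham 2) and 1065 (BPH 1). BPH 2, BPH+ghrelin 2 and sham 3 had signals between those of the 2 remaining arrays of their group at 71.3%, 69.2% and 73.3% of all genes, and at 45, 41 and 32 of the 45 mitotic genes. If these 3 arrays are not independent samples, the p values are too small, and results without them are given. The labels give separate samples, and p values measure the spread between these arrays only. Markers of the labelled tissue were present, as 7 of 7 markers of prostate secretory epithelium had a signal above background. Their summed level (log2) was 18.30 to 18.34 in sham, 17.56 to 17.69 in BPH and 17.61 to 17.77 in BPH+ghrelin.

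Measured as quantile normalized log2 signal, mitotic genes were highest in BPH+ghrelin. The means of the groups were in the order sham, BPH, BPH+ghrelin, from low to high, in 37 of the 45 genes (82.2%), while 18.9% of all genes had this order. A comparison of 2 groups took in a gene whose probe passed the scanner's test for signal over background on 3 or more of the 6 arrays, and groups were compared with limma and Benjamini-Hochberg adjustment over all genes tested in that comparison. Of the 45 genes, 37 were well above background on 9 of 9 arrays. The other 8 (Nek2, Aurkb, Cdca8, Cenpa, Cenpf, Tpx2, Hmmr and Smc2) were near background on 1 or more sham arrays and passed through the groups where they were higher. All 8 are among the genes counted above with the order sham, BPH, BPH+ghrelin. That order is one of means and was not tested. The 3 comparisons share arrays and are not independent of each other.

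**Figure D1:**
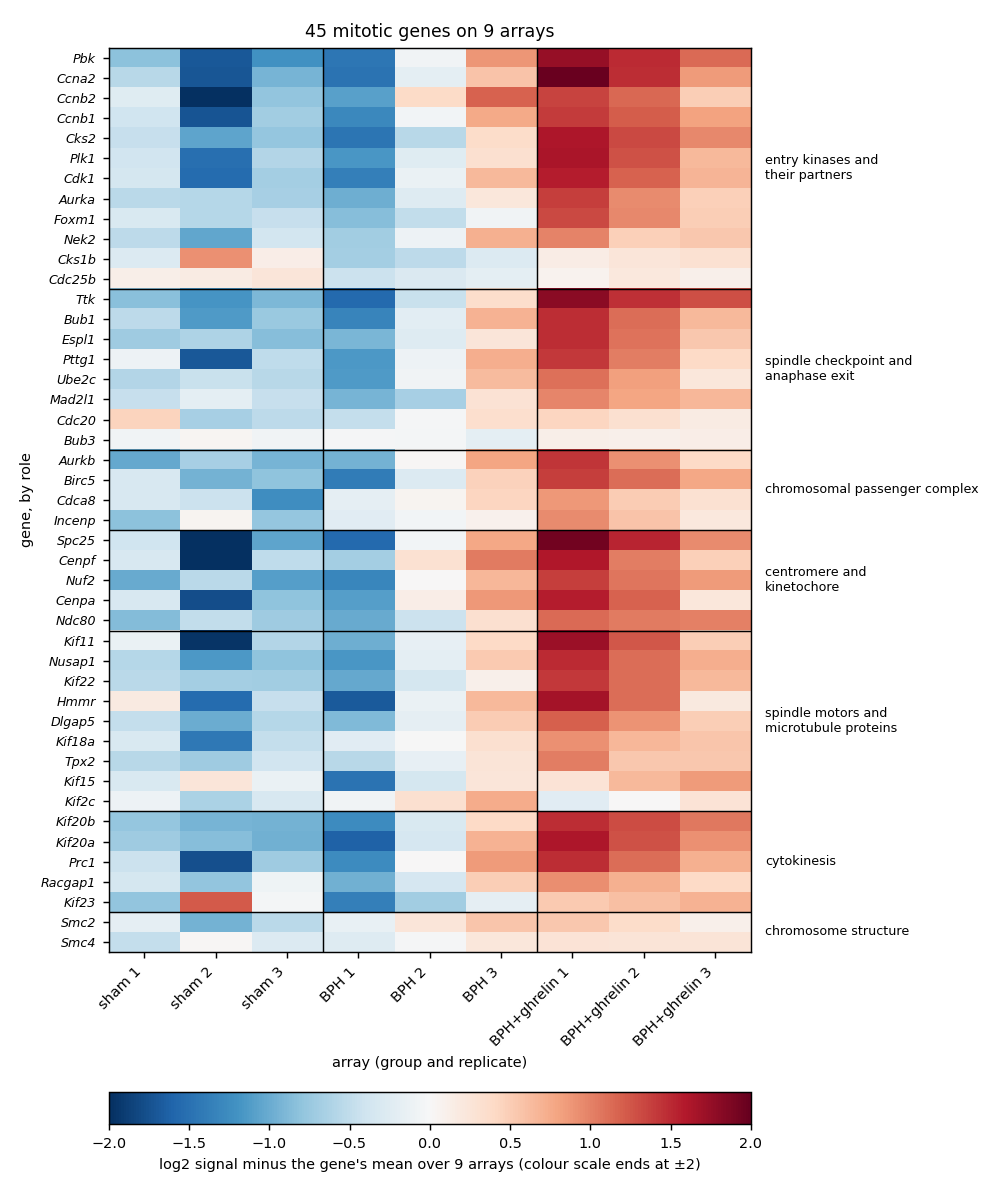
Log2 signal of the 45 measured mitotic genes (rows, by role, and within a role by the difference between BPH+ghrelin and sham) on the 9 arrays (columns), as difference from the mean of the gene over all arrays. BPH+ghrelin 1 is the highest array in 37 genes, BPH 1 the lowest in 21 and sham 2 the lowest in 19, and BPH 3 is above BPH 2 and BPH 2 above BPH 1 in 44 genes.

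In BPH+ghrelin against BPH, 44 of 45 mitotic genes were higher (51.7% of all genes were higher), 28 by 2-fold or more (2.9% of all genes), and 0 were lower by 2-fold or more (3.21%). The median log2 difference was 1.24, compared to 0.02 over all genes. Arrays of BPH+ghrelin and BPH did not overlap in 29 genes, with BPH+ghrelin higher in 29 (19.8% of all genes) and lower in 0 (19.3%). At an unadjusted p under 0.05, 30 mitotic genes were higher (10.7%) and 0 lower (10.5%). After adjustment, 1 gene, Foxm1, was higher (0.496% of all genes) and 0 lower (0.987%). A two-sided exact permutation test with 3 against 3 arrays cannot give a p under 0.1. After adjustment, 0 genes passed without BPH 1, BPH 2 or any of the 3 BPH+ghrelin arrays (0.0152% to 0.395% of all genes), and 8 passed without BPH 3 (2.01% of all genes). The number at least 2-fold higher was 14 without BPH 1, with a median of 0.74.

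In BPH+ghrelin against sham, 43 of 45 were higher (54.4% of all genes), 36 of them by 2-fold or more (3.21% of all genes), and 0 were lower by 2-fold or more (4.2%). The median log2 difference was 1.71 (all genes, 0.04). The arrays did not overlap in 40 genes, with BPH+ghrelin higher in 40 (17.5%) and lower in 0 (12.8%). Limma gave an adjusted p under 0.05 for 21 genes that were higher (2.99% of all genes) and 0 that were lower (3.3%). These numbers include genes near background in sham. Among the 37 genes well above background on all 6 arrays, 29 were higher by 2-fold or more, 32 were higher without overlap, 30 were higher at an unadjusted p under 0.05 and 18 had an adjusted p under 0.05. The other 3 calls were Aurkb and Tpx2 (0 of 3 sham arrays well above background) and Cdca8 (1 of 3), which entered the comparison through BPH+ghrelin. In a fit restricted to genes well above background on all 6 arrays, 22 of 37 mitotic genes passed (7.37% of 16213 genes, either direction). Shares over all genes under this restriction were not computed for the fold and overlap counts. With Aurkb and Tpx2 at the lower bounds, 35 of 45 genes were higher by 2-fold or more and the median was 1.71. The calls depended on single arrays, as 0 genes passed without sham 3, without BPH+ghrelin 1 or without BPH+ghrelin 2 (1.35%, 2.12% and 1.18% of all genes), 8 without BPH+ghrelin 3 (2.87%) and 15 without sham 2 (10%). The highest median in these fits was 1.95 (without BPH+ghrelin 3) and the lowest 1.504 (without sham 2). At an unadjusted p under 0.05, 38 mitotic genes were higher (13.5% of all genes) and 0 lower (10.2%), compared to 37 genes without sham 3, 34 without BPH+ghrelin 1 and 37 without BPH+ghrelin 2 (in either direction 3444, 3544 and 3239 of all 19197 genes). No call remained with slide as a fixed block, where 0.443% of all genes passed, and 30 mitotic genes and 2552 of all 19197 genes had an unadjusted p under 0.05.

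In BPH against sham, 37 of 44 genes tested were higher (53.7% of all genes), 3 of them by 2-fold or more (3.53%), and 0 were lower by 2-fold or more (4.63%), with a median of 0.48 (all genes, 0.04). These 3 were Cenpf, Ccnb2 and Pbk. Limma gave an adjusted p under 0.05 for 0 genes that were higher (2.16% of all genes) and 0 that were lower (2.18%). At an unadjusted p under 0.05, 4 were higher in BPH, namely Smc2, Kif18a, Cdca8 and Kif2c (14.4% of all genes), and 2 were lower, Cdc25b and Cks1b (12%). Cenpf, Smc2 and Cdca8 were near background on 1 or more sham arrays and entered through BPH. Among the 37 genes well above background on all 6 arrays, 2 were higher by 2-fold or more, and 2 were higher (Kif18a and Kif2c) and 2 lower at an unadjusted p under 0.05. In a limma fit restricted to such genes, 4 of 37 mitotic genes and 4620 of all 16279 genes had an unadjusted p under 0.05. The arrays did not overlap in 4 genes higher (17.1%) and 1 lower (14.2%), or 2 and 1 of these 37. Without sham 1, Cdc25b, Cks1b and Smc2 had an adjusted p under 0.05, that is 3 of 44, compared to 15.7% of all genes. The median depended on BPH 1 and BPH 3, as it was 0.89 without the former and 0.11 without the latter. The number of genes higher by 2-fold or more was 16 without BPH 1, 8 without sham 1, 2 without BPH 2, 1 without BPH 3 and 0 without sham 2. BPH and sham arrays were on different slides and can be set against each other within slides only through BPH+ghrelin arrays. With slide as a fixed block the median was -0.007.

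**Figure D2:**
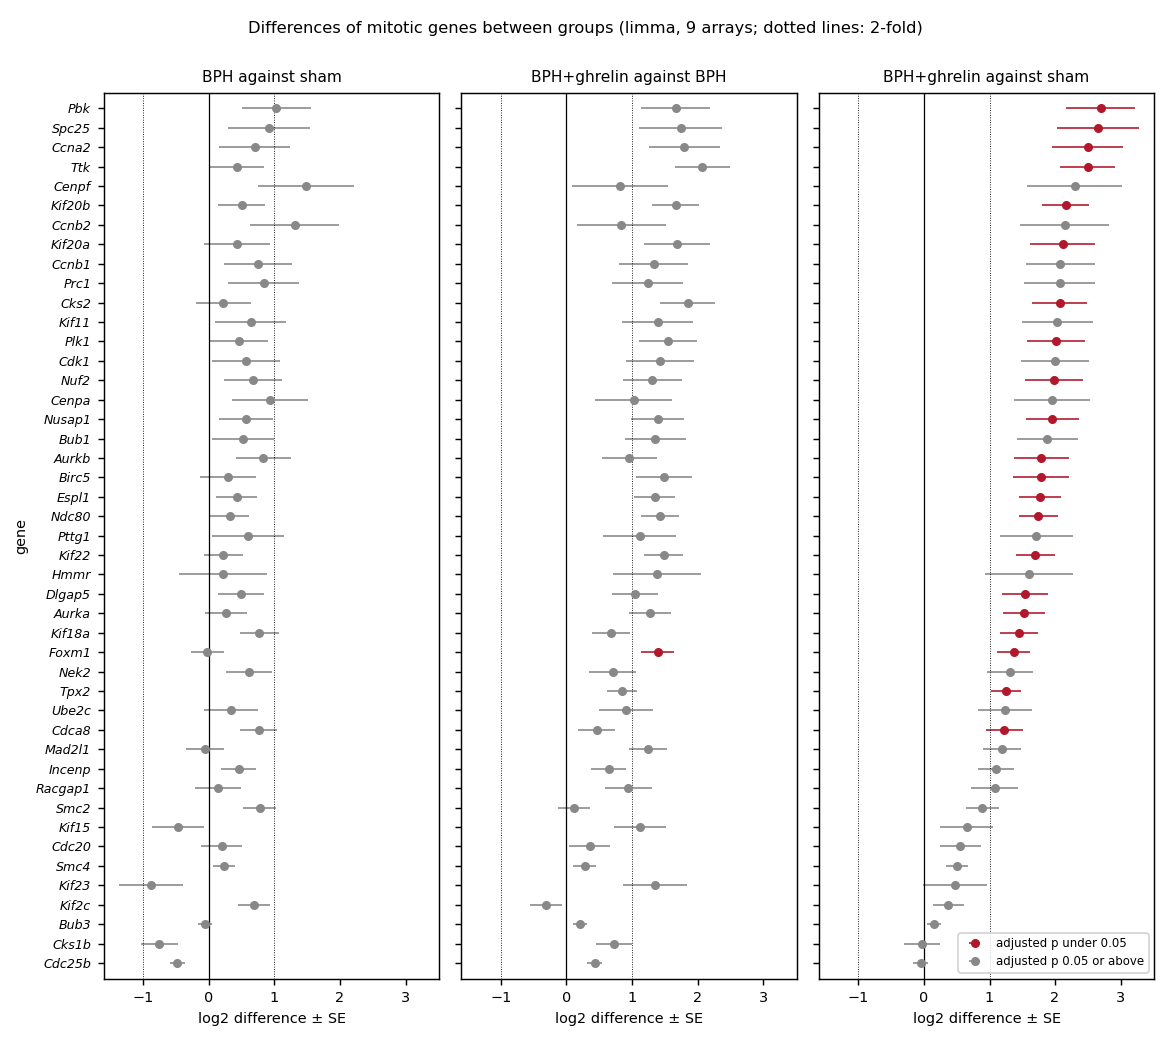
Log2 difference (points) with standard error (bars) of each mitotic gene in the 3 comparisons, from limma on 9 arrays, in 1 order of genes; red points have an adjusted p under 0.05 and dotted lines mark 2-fold. Adjusted p values under 0.05 are found for 0 genes in BPH against sham, 1 in BPH+ghrelin against BPH and 21 in BPH+ghrelin against sham.

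Among the kinases, cyclins and partners that start mitosis, 12 of 15 genes were measured, and 12 of 12 were above BPH in BPH+ghrelin, 8 by 2-fold or more (median 1.36). Against sham, 10 of 12 were higher, all 10 by 2-fold or more, and 6 had an adjusted p under 0.05. Of the 11 genes well above background on all 6 arrays, 9 were higher than in sham by 2-fold or more. For each role, the shares over all genes against sham were 3.21% (2-fold or more higher) and 2.99% (higher at an adjusted p under 0.05). Against BPH, these shares were 2.9% and 0.496%. Foxm1 encodes the transcription factor that drives genes of G2 and M phase, and the study selected it on these arrays. Its log2 signal was 6.16, 5.90 and 6.00 in sham, 5.62, 5.97 and 6.39 in BPH, and 7.78, 7.43 and 6.95 in BPH+ghrelin. Each BPH+ghrelin array was thus above each of the other 6, while BPH and sham overlapped. The log2 difference was 1.39 to BPH (standard error 0.25, 2.62-fold, adjusted p 0.0430) and 1.37 to sham (standard error 0.25, adjusted p 0.0224), and -0.02 between BPH and sham. The adjusted p of the former was 0.0403 without BPH 3, but 0.138 and 0.212 without BPH 1 and BPH 2, and 0.0907, 0.181 and 0.0597 without BPH+ghrelin 1, 2 and 3. It was 0.108 with replicate number as a block, 0.231 with slide as a fixed block and 0.0632 without the filter on dim probes. Without the 3 arrays between the others it was 0.948, with a difference of 1.36. The other probe of Foxm1 was well above background on 1 of 9 arrays.

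Ccna2 encodes cyclin A2, which acts in S phase and in entry into mitosis. Its log2 signal was 7.51, 6.35 and 7.13 in sham, 6.59, 7.87 and 8.63 in BPH, and 10.03, 9.54 and 8.92 in BPH+ghrelin. BPH+ghrelin did not overlap with either group, and the lowest BPH array was within the sham range. The difference to BPH was 1.80 (standard error 0.54, 3.48-fold, adjusted p 0.125) and that to sham 2.497 (standard error 0.54, 5.65-fold, adjusted p 0.0355). The other probe of Ccna2 gave 1.81 and 2.47.

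Cks2 encodes a small subunit that binds cyclin-dependent kinases. Signals were 8.72, 8.12 and 8.41 in sham, 7.72, 8.63 and 9.55 in BPH, and 10.80, 10.51 and 10.15 in BPH+ghrelin, so that sham lay within the range of BPH and BPH+ghrelin above both. The level of Cks2 in BPH+ghrelin was 3.61 times that in BPH (log2 difference 1.85, standard error 0.42, adjusted p 0.0721) and 4.19 times that in sham (2.07, standard error 0.42, adjusted p 0.0294). Pbk encodes a mitotic kinase of the MAPKK family, and had the largest difference to sham of the 45 genes (2.70, standard error 0.53, 6.48-fold, adjusted p 0.0261). On the arrays it had 5.39, 4.52 and 5.00 in sham, 4.76, 6.14 and 7.10 in BPH, and 7.95, 7.71 and 7.34 in BPH+ghrelin. BPH spanned the distance from sham nearly to BPH+ghrelin, without overlap with the latter (difference 1.67, standard error 0.53, adjusted p 0.140).

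The kinase Plk1 acts from mitotic entry to cytokinesis, and Aurka (Aurora A) at the centrosomes and spindle poles. Plk1 had 7.86, 6.73 and 7.65 in sham, 7.07, 7.99 and 8.55 in BPH, and 9.87, 9.51 and 8.88 in BPH+ghrelin. Aurka had 7.37, 7.35 and 7.25 in sham, 6.94, 7.66 and 8.14 in BPH, and 9.30, 8.86 and 8.39 in BPH+ghrelin. In both genes, each BPH+ghrelin array was above the other 6. Differences to sham passed the test (Plk1, 2.01, standard error 0.45, adjusted p 0.0383, and Aurka, 1.53, standard error 0.32, adjusted p 0.0330), and those to BPH did not (1.55 and 1.27, adjusted p 0.116 and 0.0927). Cdk1, with a difference to BPH of 1.43 (standard error 0.52, adjusted p 0.177) and to sham of 2.00 (standard error 0.52, adjusted p 0.0609), did not overlap with either group but passed neither test: its BPH+ghrelin signals were 10.75, 10.36 and 9.87, those of BPH 7.81, 9.06 and 9.83, and those of sham 8.84, 7.65 and 8.51.

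The B-type cyclins Ccnb1 and Ccnb2 are the partners of Cdk1. Ccnb1 was 1.33 above BPH and 2.08 above sham on the log2 scale (adjusted p 0.201 and 0.0550). Ccnb2 was 0.84 above BPH and 2.14 above sham (adjusted p 0.504 and 0.103), as the BPH array with the highest signal (7.86) was above 2 of the 3 BPH+ghrelin arrays (8.04, 7.83 and 7.17). Nek2, a kinase that separates centrosomes, gave 0.70 and 1.32 (adjusted p 0.294 and 0.0665), and its other probe, well above background on 7 of 9 arrays, 0.30 and 2.00. None of these 3 genes passed the adjusted threshold.

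Cks1b and Cdc25b had another pattern. Cks1b is a paralog of Cks2 and serves in the degradation of the inhibitor p27, and its log2 signal was 10.64, 11.82 and 11.04 in sham, 10.22, 10.38 and 10.64 in BPH, and 11.05, 11.14 and 11.21 in BPH+ghrelin. BPH+ghrelin was above BPH without overlap (0.72, standard error 0.28, adjusted p 0.193), but within the wide range of sham (-0.03, standard error 0.28, adjusted p 0.958), and the sign of the latter depended on the scaling, with 0.02 after scaling to the 75th percentile. The other probe of Cks1b gave 0.65 to BPH and 0.63 to sham, so that both probes differ in the comparison with sham. Cdc25b encodes a phosphatase that activates Cdk1, and was lower in BPH (6.46 to 6.70) than in sham (7.01, 7.06 and 7.14) without overlap (difference -0.48, standard error 0.12, adjusted p 0.0568). In BPH+ghrelin it was at the level of sham, with 6.97, 7.10 and 6.99 (difference to BPH 0.43, standard error 0.12, adjusted p 0.101, and to sham -0.05, standard error 0.11, adjusted p 0.835).

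**Figure D3:**
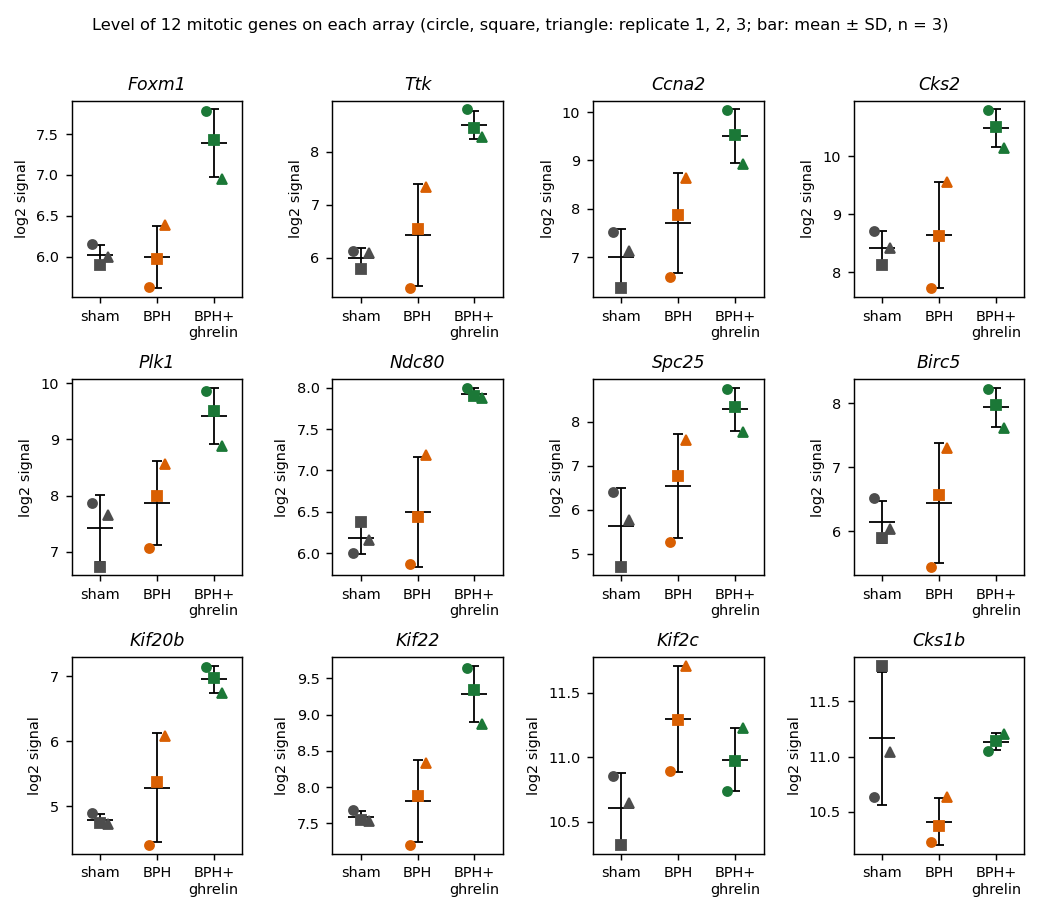
Log2 signal of 12 mitotic genes on each of the 9 arrays (symbols, by replicate), with mean ± SD of 3 arrays. In the first 10 genes shown, from Foxm1 to Kif22, each BPH+ghrelin array lies above each BPH and each sham array, while Kif2c is highest in BPH and Cks1b overlaps with sham.

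Of the genes of the spindle checkpoint and anaphase exit, 8 of 9 were measured. In BPH+ghrelin, 8 of 8 were above BPH and 8 of 8 above sham, 5 and 6 of them by 2-fold or more (medians 1.18 and 1.48), and 2 passed the adjusted threshold against sham. Ttk (Mps1) is the kinase that starts checkpoint signaling at unattached kinetochores, and it was selected by the study on these arrays. It had 6.14, 5.80 and 6.08 in sham, 5.43, 6.54 and 7.33 in BPH, and 8.79, 8.44 and 8.27 in BPH+ghrelin. No BPH+ghrelin array overlapped with another group, while sham lay within the range of BPH. The difference to BPH was the largest of the 45 genes (2.07, standard error 0.42, 4.20-fold), with an adjusted p of 0.0569, and it was 2.496 to sham (standard error 0.42, 5.64-fold, adjusted p 0.0163). Leaving out single arrays, the adjusted p in the comparison with sham was 0.0277 to 0.0725 and passed in 3 of 6 fits.

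Espl1 encodes separase, which cleaves cohesin at anaphase. Its signals were 4.82, 4.91 and 4.67 in sham, 4.62, 5.27 and 5.77 in BPH, and 7.01, 6.61 and 6.07 in BPH+ghrelin, without overlap of BPH+ghrelin with either group. It was 2.54-fold higher than in BPH (1.34, standard error 0.32, adjusted p 0.0798) and 3.40-fold higher than in sham (1.77, standard error 0.32, adjusted p 0.0207). Its inhibitor securin is encoded by Pttg1, which was 1.12 above BPH and 1.71 above sham (adjusted p 0.289 and 0.108), and overlapped with BPH.

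The checkpoint kinase Bub1 had 7.46, 6.85 and 7.24 in sham, 6.67, 7.77 and 8.67 in BPH, and 9.45, 9.10 and 8.63 in BPH+ghrelin. The highest BPH array was above the lowest BPH+ghrelin array, while sham was below BPH+ghrelin without overlap (difference to BPH 1.36, adjusted p 0.160, and to sham 1.88, standard error 0.46, adjusted p 0.0523). Mad2l1, whose product inhibits Cdc20, differed from BPH by 1.24 (standard error 0.29, adjusted p 0.0764) and from sham by 1.18 (standard error 0.29, adjusted p 0.0506). Differences without a call were also found for Cdc20 (0.35 and 0.55, adjusted p 0.541 and 0.326), the activator of the anaphase-promoting complex, and for its ubiquitin-conjugating enzyme Ube2c (0.90 and 1.24, adjusted p 0.253 and 0.115).

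Bub3 binds Bub1 and is also present in cells that do not divide. It was nearly flat, with 10.93, 11.03 and 10.93 in sham, 10.97, 10.96 and 10.79 in BPH, and 11.11, 11.10 and 11.13 in BPH+ghrelin. BPH+ghrelin was above all other arrays, but the differences were only 0.21 to BPH and 0.15 to sham (standard errors 0.11, adjusted p 0.308 and 0.438). The other probe of Bub3 gave -0.10 and 0.16.

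The chromosomal passenger complex, which corrects wrong attachments and organizes cytokinesis, has 4 subunits, and in BPH+ghrelin each was above BPH (median 0.80) and above sham by 2-fold or more (median 1.51). Of the 2 genes well above background on all sham arrays, Birc5 passed the adjusted threshold against sham and Incenp did not. Aurkb and Cdca8 also had an adjusted p under 0.05, but entered the comparison through BPH+ghrelin. Survivin (Birc5) had 6.52, 5.89 and 6.04 in sham, 5.45, 6.57 and 7.31 in BPH, and 8.23, 7.97 and 7.62 in BPH+ghrelin, and only the latter was apart from the other groups. Its difference was 1.49 to BPH (standard error 0.43, 2.82-fold, adjusted p 0.115) and 1.79 to sham (standard error 0.43, 3.45-fold, adjusted p 0.0477). The kinase of the complex, Aurkb (Aurora B), was well above background on 0 of 3 sham arrays (3.17, 3.53 and 3.27) and on all others (3.25, 4.22 and 4.97 in BPH, and 5.63, 5.10 and 4.60 in BPH+ghrelin). Compared to sham, it was at least 3.40-fold higher in BPH+ghrelin (adjusted p 0.0462, with sham at background) and at least 1.75-fold higher in BPH (adjusted p 0.248), and 0.96 above BPH on the log2 scale (adjusted p 0.241). These bounds were computed against the lowest signal that counts as above background on each sham array, or the signal of Aurkb where this was higher.

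The scaffold Incenp had 5.85, 6.72 and 5.90 in sham, 6.45, 6.62 and 6.76 in BPH, and 7.62, 7.25 and 6.89 in BPH+ghrelin. BPH+ghrelin was above all other arrays, with differences of 0.64 to BPH (standard error 0.27, adjusted p 0.227), and a level 2.14 times that in sham (adjusted p 0.0529). Borealin (Cdca8) had 3.95, 3.84 and 3.03 in sham, where 1 of 3 arrays was well above background, 4.08, 4.32 and 4.70 in BPH, and 5.14, 4.77 and 4.58 in BPH+ghrelin. Sham was below both other groups, which overlapped with each other. The level of Cdca8 in BPH+ghrelin was 2.34 times the mean of sham, which rests on 2 arrays at background (1.22, standard error 0.28, adjusted p 0.0426), and the differences of 0.76 between BPH and sham and of 0.46 between BPH+ghrelin and BPH had adjusted p values of 0.143 and 0.376.

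At the centromere and kinetochore, 5 of 7 genes were measured, and in BPH+ghrelin 5 of 5 were above BPH (median 1.31) and above sham by 2-fold or more (median 1.98). Ndc80, Nuf2 and Spc25 are subunits of the complex that holds microtubules at the kinetochore, and these 3 passed the adjusted threshold against sham. Of the 3, Ndc80 was the most uniform in BPH+ghrelin, with 8.00, 7.90 and 7.87, compared to 5.87, 6.44 and 7.18 in BPH and 6.00, 6.37 and 6.16 in sham. The difference was 1.43 to BPH (standard error 0.29, 2.69-fold, adjusted p 0.0582) and 1.74 to sham (standard error 0.29, 3.35-fold, adjusted p 0.0165).

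Spc25 had 6.41, 4.71 and 5.76 in sham, 5.26, 6.77 and 7.59 in BPH, and 8.75, 8.34 and 7.76 in BPH+ghrelin, and differed by 2.65 from sham (standard error 0.63, 6.30-fold, adjusted p 0.0462) and by 1.74 from BPH (standard error 0.63, adjusted p 0.174). Nuf2 had 5.11, 5.58 and 5.02 in sham, 4.81, 6.13 and 6.79 in BPH, and 7.50, 7.19 and 6.97 in BPH+ghrelin, with differences of 1.98 from sham (standard error 0.45, adjusted p 0.0401) and 1.31 from BPH (standard error 0.45, adjusted p 0.160). Each of the 3 Ndc80 complex genes had no overlap between BPH+ghrelin and the other groups, and in each the lowest BPH array was within or below the sham range. The centromeric histone Cenpa was 1.02 above BPH and 1.96 above sham (adjusted p 0.347 and 0.0874), and Cenpf, a large protein of the kinetochore, 0.82 and 2.30 (adjusted p 0.547 and 0.103). In Cenpf, sham 2 (0.87) stood apart from sham 1 and 3 (3.49 and 3.31), and the other probe, well above background on 4 of 9 arrays, gave a difference to sham of 0.19.

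Motors and microtubule proteins of the spindle were represented by 9 of 10 genes. In BPH+ghrelin, 8 of 9 were above BPH, 6 by 2-fold or more, and 9 of 9 were above sham, 6 by 2-fold or more with Tpx2 at its lower bound. Of the 7 genes well above background on all 6 arrays, 4 had an adjusted p under 0.05 against sham. Kif22 encodes a motor on chromosome arms that moves them to the equator. It had 7.69, 7.54 and 7.53 in sham, 7.21, 7.88 and 8.33 in BPH, and 9.64, 9.34 and 8.87 in BPH+ghrelin, which was above the other groups on each array. The difference was 1.48 to BPH (standard error 0.30, 2.79-fold, adjusted p 0.0551) and 1.70 to sham (standard error 0.29, 3.25-fold, adjusted p 0.0184).

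The bipolar spindle is built by the motor Kif11 (Eg5), which had 7.10, 5.28 and 6.66 in sham, 6.26, 7.07 and 7.63 in BPH, and 8.94, 8.48 and 7.73 in BPH+ghrelin. In the latter it was 1.39 above BPH and 2.04 above sham, without overlap (adjusted p 0.196 and 0.0645). Nusap1, which bundles microtubules near chromosomes, had 6.87, 6.29 and 6.63 in sham, 6.27, 7.25 and 7.97 in BPH, and 8.94, 8.56 and 8.17 in BPH+ghrelin. BPH+ghrelin was apart from both groups, by 1.39 from BPH (standard error 0.41, adjusted p 0.120) and by 1.96 from sham (standard error 0.41, 3.88-fold, adjusted p 0.0317). Dlgap5 (HURP), which stabilizes kinetochore fibers, differed from sham by 1.54 (standard error 0.35, adjusted p 0.0399) and from BPH by 1.05 (adjusted p 0.152), with signals of 6.11, 5.60 and 6.01 in sham, 5.70, 6.41 and 7.10 in BPH, and 7.79, 7.49 and 7.08 in BPH+ghrelin.

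Tpx2, an activator of Aurora A, was well above background on 0 of 3 sham, 2 of 3 BPH and 3 of 3 BPH+ghrelin arrays. Its signal was 2.96, 2.81 and 3.13 in sham, 2.97, 3.35 and 3.77 in BPH, and 4.54, 4.06 and 4.05 in BPH+ghrelin, where it was at least 1.98-fold higher than in sham (adjusted p 0.0214, with sham at background) and 0.85 above BPH on the log2 scale (standard error 0.23, adjusted p 0.10). Kif18a, a motor that limits the length of kinetochore microtubules, was next to Kif2c the gene of this role in which BPH did not overlap with sham, with 6.21, 5.09 and 6.04 in sham, 6.30, 6.51 and 6.85 in BPH, and 7.43, 7.18 and 7.08 in BPH+ghrelin. The 3 groups did not overlap with each other, with differences of 0.77 between BPH and sham (adjusted p 0.151), 0.68 between BPH+ghrelin and BPH (adjusted p 0.235) and 1.45 between BPH+ghrelin and sham (standard error 0.29, 2.73-fold, adjusted p 0.0291).

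Kif2c (MCAK), which depolymerizes microtubules at kinetochores, was the single gene of the 45 with a lower mean in BPH+ghrelin compared to BPH. Its signals were 10.86, 10.32 and 10.65 in sham, 10.89, 11.28 and 11.71 in BPH, and 10.74, 10.97 and 11.23 in BPH+ghrelin. BPH was above sham without overlap, and BPH+ghrelin overlapped with both groups. The difference was -0.31 between BPH+ghrelin and BPH (standard error 0.24, adjusted p 0.476), 0.69 between BPH and sham (standard error 0.24, adjusted p 0.127) and 0.37 between BPH+ghrelin and sham (standard error 0.24, adjusted p 0.393). Its other probe, which was also well above background on 9 of 9 arrays, gave -0.35, 0.63 and 0.28. None of these values passed the test, and Kif2c is not shown to differ from the other genes by a test of its own. Kif15, a motor that shares work with Kif11, was 1.12 above BPH (adjusted p 0.172) and 0.65 above sham (adjusted p 0.370). Hmmr, the hyaluronan-mediated motility receptor that also acts at spindle poles, was 1.39 above BPH and 1.60 above sham (adjusted p 0.279 and 0.194).

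Of the cytokinesis genes, 5 of 7 were measured. In BPH+ghrelin, 5 of 5 were above BPH, 4 by 2-fold or more (median 1.36), and 4 of 5 were above sham by 2-fold or more (median over 5 genes, 2.07), 2 of them with an adjusted p under 0.05. Kif20b had the lowest adjusted p against sham of the 45 genes. This motor of the midbody had 4.90, 4.74 and 4.72 in sham, 4.41, 5.37 and 6.07 in BPH, and 7.14, 6.97 and 6.74 in BPH+ghrelin. The difference was 2.16 to sham (standard error 0.36, 4.48-fold, adjusted p 0.0162) and 1.67 to BPH (standard error 0.36, 3.17-fold, adjusted p 0.0662), without overlap. Kif20a (MKLP2), which carries the passenger complex to the central spindle, had 7.05, 6.91 and 6.80 in sham, 6.15, 7.43 and 8.46 in BPH, and 9.38, 9.04 and 8.68 in BPH+ghrelin. It was 4.33-fold higher than in sham (2.12, standard error 0.50, adjusted p 0.0461) and 3.22-fold higher than in BPH (1.69, standard error 0.50, adjusted p 0.122).

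Prc1, which crosslinks the central spindle, was 1.24 above BPH (adjusted p 0.238) and 2.07 above sham (adjusted p 0.0611), and its other probe gave 1.31 and 2.25. Kif23 (MKLP1) and Racgap1 form the centralspindlin complex. Racgap1 was 0.94 above BPH and 1.08 above sham (adjusted p 0.188 and 0.112). Kif23 differed from this, as sham 2 had the highest signal of 9 arrays (8.21), with 6.18 and 6.94 in sham 1 and 3, 5.61, 6.28 and 6.79 in BPH, and 7.50, 7.58 and 7.68 in BPH+ghrelin. BPH+ghrelin was thus above BPH without overlap (1.36, standard error 0.49, adjusted p 0.173) but not above sham (0.47, standard error 0.49, adjusted p 0.606), and the difference of BPH to sham was -0.88 (adjusted p 0.279).

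Smc2 and Smc4, the ATPases of condensin, were the measured genes of chromosome structure, 2 of 6, and 0 of 2 were 2-fold or more above BPH or sham in BPH+ghrelin. Smc4 had 9.06, 9.55 and 9.26 in sham, 9.28, 9.51 and 9.77 in BPH, and 9.81, 9.79 and 9.80 in BPH+ghrelin. It was 0.28 above BPH and 0.51 above sham, without overlap (adjusted p 0.382 and 0.119). Smc2 had 4.09, 3.32 and 3.73 in sham, 4.12, 4.52 and 4.83 in BPH, and 4.81, 4.63 and 4.38 in BPH+ghrelin, so that both BPH groups were above sham and overlapped with each other. The difference between BPH and sham (0.77, standard error 0.25, adjusted p 0.108) was nearly that between BPH+ghrelin and sham (0.89, standard error 0.25, adjusted p 0.0732), and BPH+ghrelin and BPH differed by 0.12 (adjusted p 0.814).

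The spread of mitotic genes within BPH was large. The median SD between the 3 arrays of a group was 0.75 in BPH, compared to 0.33 in sham and 0.33 in BPH+ghrelin, while it was 0.31, 0.17 and 0.17 over all genes in sham, BPH and BPH+ghrelin. The median deviation from the mean of 9 arrays was -1.02, -0.16 and 0.46 on BPH 1, 2 and 3, and -0.44, -0.93 and -0.67 on the sham arrays. It was 1.38, 1.03 and 0.55 in BPH+ghrelin. BPH 1 was thus below the sham arrays, and BPH 3 close to BPH+ghrelin 3. BPH 2 was between the other BPH arrays in 45 of 45 genes, with BPH 1 lowest in 44 of them (35.3% of all genes had this order).

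Other values moved with these arrays. The summed level (log2) of 6 measured genes of seminal vesicle and coagulating gland was 14.8, 13.93 and 9.54 on BPH 1, 2 and 3, and 11.95, 11.25 and 9.17 on BPH+ghrelin 1, 2 and 3, compared to 16.47 to 17.27 in sham. It was thus lowest where mitotic genes were highest in BPH, and lowest where they were lowest in BPH+ghrelin. Smooth muscle markers (8 of 8 measured) were at 14.14, 14.67 and 15.07 on the BPH arrays, 14.07 to 14.21 in BPH+ghrelin and 14.11 to 14.93 in sham. In BPH+ghrelin, 8 of 8 of these genes were lower compared to BPH (median -0.52) and 8 of 8 compared to sham (median -0.39), and 1 of them, the smooth muscle myosin gene Myh11, passed the adjusted threshold (-0.96, adjusted p 0.0157, and -1.07, adjusted p 0.00245). Markers of basal epithelium (4 of 4) were at 12.33 to 12.77 in BPH, 12.81 to 12.90 in BPH+ghrelin and 12.07 to 12.58 in sham, and those of immune cells (12 of 13 measured, 2 of them at background on each array) at 15.26 to 15.51, 15.08 to 15.47 and 15.06 to 15.36. Luminal epithelium (5 of 5), fibroblast (7 of 7) and endothelium (5 of 6) had 15.67 to 16.22, 14.24 to 14.85 and 9.72 to 10.34 in BPH, and 15.59 to 15.82, 14.18 to 14.65 and 9.62 to 9.83 in BPH+ghrelin. In sham, the values of these 3 lists were 15.72 to 15.84, 13.66 to 14.55 and 10.17 to 10.52. Striated muscle markers (5 of 6) were at 8.14 to 9.12 in BPH, 8.39 to 8.74 in BPH+ghrelin and 8.41 to 9.05 in sham. Adipocyte markers (4 of 5, 1 of them at background on each array) were at 11.69, 11.22 and 10.27 on BPH 1, 2 and 3. They were at 5.75, 11.02 and 12.07 on BPH+ghrelin 1, 2 and 3, and at 6.59, 12.18 and 10.67 on sham 1, 2 and 3. Within each group, their order over the arrays was opposite to that of the median of mitotic genes. BPH+ghrelin 1, the highest array in 37 mitotic genes, had the lowest adipocyte level of the 9 arrays. Compared to BPH, lower levels in BPH+ghrelin were found for 5 of 5 luminal (median -0.21), 6 of 7 fibroblast (-0.32), 4 of 5 endothelial (-0.27), 6 of 8 immune (-0.29), 4 of 5 striated muscle (-0.36), 5 of 6 seminal vesicle (-0.71), 3 of 3 adipocyte (-1.19), 2 of 4 basal (-0.04) and 4 of 7 prostate secretory genes (-0.10). Of these, Lum (fibroblast, -1.65, adjusted p 0.024) and Ptprc (immune cells, -0.82, adjusted p 0.037) fell. The part of these differences in the levels of mitotic genes was not tested.

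Within slides, BPH+ghrelin was higher at most mitotic genes. On the slide with all BPH arrays, BPH+ghrelin 1 was above the mean of the 3 BPH arrays in 44 of 45 genes and by at least 2-fold in 35 (3.42% of all genes), with a median difference of 1.58. On the slide with sham 1 and 2, the mean of BPH+ghrelin 2 and 3 was above that of sham in 44 of 45 genes and by at least 2-fold in 34 (4.38% of all genes), with a median of 1.49. These are values with 1 against 3 and 2 against 2 arrays and have no test. Kif2c was lower in the former (-0.55) and Cks1b in the latter (-0.06). The 34 genes include some near background on sham arrays, such as Aurkb (1.50) and Tpx2 (1.17). These passed through the groups where they were higher. Sham 2, which is part of this comparison, had the lowest raw signal of all arrays. Without the 3 arrays that lay between the others of their group, the median was 1.30 in BPH+ghrelin against BPH, 1.68 in BPH+ghrelin against sham and 0.44 in BPH against sham, and 0 mitotic genes had an adjusted p under 0.05 in each comparison (0%, 0.0104% and 0.0153% of all genes).

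**Figure D4:**
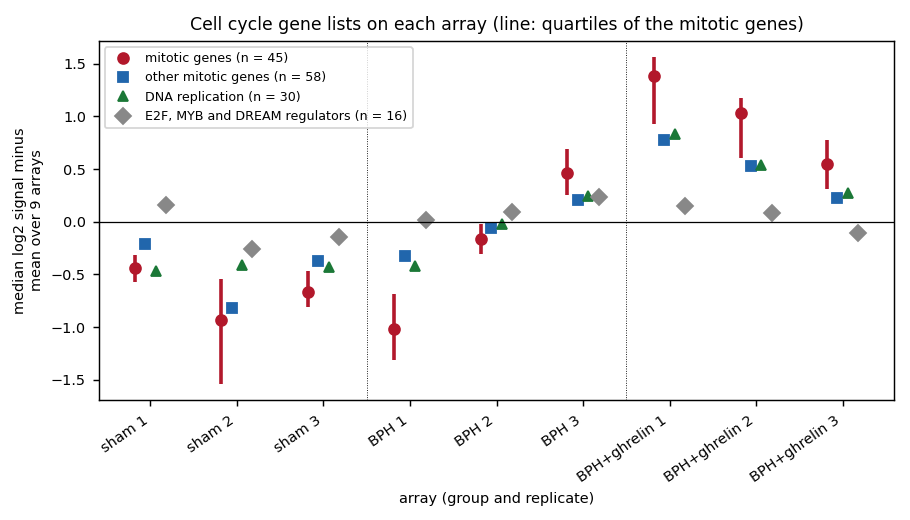
Median log2 signal of 4 gene lists on each of the 9 arrays, as difference from the mean of each gene over all arrays, with the quartiles of the 45 mitotic genes as lines. Mitotic genes range from -1.02 on BPH 1 to 1.38 on BPH+ghrelin 1, other mitotic genes range from -0.82 on sham 2 to 0.78 and DNA replication genes from -0.47 on sham 1 to 0.83, both highest on BPH+ghrelin 1, and the E2F, MYB and DREAM regulators stay between -0.25 and 0.23.

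Other cell cycle lists were compared in the same way. Of 78 other mitotic genes, 58 were tested in BPH+ghrelin against BPH. Of these, 43 were higher (51.7% of all genes), 19 of them by 2-fold or more (2.9%), with a median of 0.48. In each direction, 1 gene passed the adjusted threshold (0.496% of all genes higher and 0.987% lower), namely Mad1l1 (1.15, adjusted p 0.0471) and Plk2. Against sham, 57 were tested, with 46 higher (54.4% of all genes), 28 at least 2-fold higher (3.21%), and a median of 0.77. At an adjusted p under 0.05, 17 were higher (2.99% of all genes) and 1 lower (3.3%). Some of these genes were near background in sham and entered through BPH+ghrelin. Among the 39 that were well above background on all 6 arrays, 29 were higher, 13 by 2-fold or more, 9 higher and 1 lower passed the adjusted threshold, and the median was 0.41. The largest difference to BPH was that of Mis18a, a factor that loads the centromeric histone, with 4.77, 3.90 and 4.10 in sham, 4.15, 5.38 and 5.98 in BPH, and 8.38, 7.77 and 6.17 in BPH+ghrelin (difference to BPH 2.27, adjusted p 0.107, and to sham 3.18, adjusted p 0.0273, where 2 of 3 arrays were well above background). Plk2, a paralog of Plk1 with roles in stress response and centriole duplication, fell in BPH+ghrelin, with 5.89, 4.72 and 5.57 in sham, 6.57, 6.07 and 5.19 in BPH, and 3.78, 3.69 and 3.73 in BPH+ghrelin (difference to BPH -2.21, standard error 0.39, adjusted p 0.0393, and to sham -1.66, adjusted p 0.0438). Cenpw, another centromere gene, was 1.93 above BPH and 2.54 above sham (adjusted p 0.170 and 0.0685).

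Of 36 DNA replication genes, which act in S phase, 30 were tested in BPH+ghrelin against BPH. Of these, 26 were higher (51.7% of all genes), 7 of them by 2-fold or more (2.9%), with a median of 0.53. At the adjusted threshold, 1 was higher (0.496% of all genes). The replicative helicase subunit Mcm3 passed the adjusted threshold, with 8.83, 8.94 and 8.81 in sham, 8.97, 9.30 and 9.64 in BPH, and 10.61, 10.40 and 10.25 in BPH+ghrelin (difference to BPH 1.115, standard error 0.18, adjusted p 0.0351, and to sham 1.56, adjusted p 0.00382). Against sham, 28 of 29 were higher (54.4% of all genes), 13 by 2-fold or more (3.21%), and 10 higher passed the adjusted threshold (2.99%), with a median of 0.95. Among the 22 well above background on all 6 arrays, 21 were higher, 8 by 2-fold or more and 8 at the adjusted threshold, with a median of 0.86. Rrm2, a subunit of ribonucleotide reductase, had 10.49, 9.35 and 10.03 in sham, 8.95, 10.78 and 11.56 in BPH, and 13.07, 12.54 and 11.85 in BPH+ghrelin, and Tk1, the thymidine kinase of S phase, 6.89, 6.83 and 6.79, 6.41, 7.61 and 8.46, and 9.51, 9.14 and 8.56. In both genes BPH+ghrelin was above all other arrays. The differences to BPH were 2.06 and 1.58 (adjusted p 0.136 and 0.122), and those to sham 2.53 and 2.24 (adjusted p 0.0572 and 0.0327). Chaf1b, a chromatin assembly factor, was 1.47 above BPH and 1.11 above sham (adjusted p 0.0839 and 0.107).

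Among regulators of these genes, 16 E2F, MYB and DREAM genes were tested in BPH+ghrelin against BPH, of which 8 were higher and 8 lower, with a median of 0.03. By limma, 0 passed the adjusted threshold (0.496% of all genes higher and 0.987% lower). At an unadjusted p under 0.05, 2 were higher (10.7% of all genes) and 1 lower (10.5%). Against sham, 11 of 15 were higher (54.4% of all genes), with a median of 0.22 (9 of 13, and 0.11, for genes well above background on all 6 arrays). At the adjusted threshold, E2f1 rose (2.99% of all genes were higher) and E2f7 fell (-0.87, adjusted p 0.0433, 3.3% of all genes were lower). E2f7 was also lower in BPH than in sham (-0.93, adjusted p 0.0421). Its signals were 4.01, 4.01 and 3.82 in BPH, and 4.05, 4.02 and 3.98 in BPH+ghrelin. E2f1, an activator of S phase genes, was 0.80 above BPH (adjusted p 0.143) and 1.22 above sham (standard error 0.26, adjusted p 0.0330), with 7.57, 8.16 and 7.80 in sham, 7.74, 8.29 and 8.75 in BPH, and 9.10, 9.02 and 9.06 in BPH+ghrelin, and no overlap with either. E2f3 was 0.86 above BPH and 0.96 above sham (adjusted p 0.130 and 0.0685). Rb1, the retinoblastoma gene that restrains E2F, was 0.91 below BPH with no test passed (7.22 to 8.85 in sham, 8.60 to 9.30 in BPH, and 8.22, 8.06 and 7.90 in BPH+ghrelin, adjusted p 0.225). Mybl2 differed from BPH by 0.11 (adjusted p 0.919) and from sham, where 1 of 3 arrays was well above background, by 1.03 (adjusted p 0.263).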

How the data were processed

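Agilent 1-colour rat arrays of 9 prostates were used, with groups taken from the sample labels. The authors deposited intensity values from Agilent Feature Extraction 11.0.1.1, with background subtracted and no normalization between arrays. They also deposited a matrix of log2 values, quantile normalized in GeneSpring (floor 2.322), which was used as an alternative. Each array had 44254 spots (0 saturated). The number of arrays limits the precision.

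Outlier spots (313 to 741 per array) were removed, spots of a probe averaged, and log2 values of 30356 probes quantile normalized. Accessions of 17998 probes (59.29%) matched RefSeq genes of GRCr8, used for names only. Where several probes of a gene passed, the brightest over 9 arrays was taken. Of 45 mitotic genes, 10 had 2 probes.

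Groups were compared with limma 3.58.1 (lmFit and eBayes, 3 groups, R 4.3.3), tested on simulated data, with Benjamini-Hochberg adjustment. Alternatives were other scaling, background correction, filters, probe rules, blocks, variance models and left-out arrays. Leaving out the 3 arrays between the others was added after the data were seen. For normexp, median signals were used.

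Values on every array are given for genes at an adjusted p under 0.05 in any comparison, for Mki67 (not measured), in each role for the 3 largest differences in BPH+ghrelin against BPH and the gene with the highest signal, for Foxm1 and Ttk, for a gene opposite to the median, and for up to 3 genes of each other list. Cdk1, Ccnb2, Cdc25b, Mcm3, Mad1l1, E2f7, Mybl2 and the sham values of Cenpf were added with their values known. The mitotic genes, lists and tests were chosen with earlier results of these data known.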

Additional observations from a re-analysis of the deposited data

How the results depend on the processing

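The number of arrays, the arrays that lie between others and the spread within BPH limit all tests. The medians kept their direction in BPH+ghrelin against BPH and against sham under each alternative. In BPH+ghrelin against BPH, calls at an adjusted p under 0.05 (1 gene; 1.48% of all genes) were 2 with scaling to the 75th percentile (2.54%), 5 with normexp (2.02%), 0 with no filter on dim probes (0.699%), 6 with only the 6 arrays (10.7%), 0 with replicate block (0.101%), 0 and 12 with slide as fixed and random block (0.0101% and 9.28%), 3 with the deposited matrix (1.85%) and 3 with trend and robust (1.52%), and calls over all genes thus moved as well. It was 0 to 8 (0.0152% to 2.01%) when 1 array was left out, with 14 to 35 genes at least 2-fold higher. With normexp, whose offset shrinks folds of dim probes, 9 (against BPH) and 21 (against sham) genes were at least 2-fold higher, with medians of 0.73 and 0.93. In BPH+ghrelin against sham, the number at an adjusted p under 0.05 (21; 6.29%) was 10 with no filter (2.99%), 3 with replicate block (2.41%), 0 with slide as fixed block (0.443%), where sham 3 does not contribute, and 0 to 21 when 1 array was left out (1.18% to 10%). In BPH against sham (0; 4.34%), it was 1 of 37 with the filter on all 6 arrays (6.55%), 12 of 44 with slide as random block (36.2%) and 0 to 3 of 44 when 1 array was left out (0.609% to 15.7%), where 1, 12 and 3 are below the share over all genes, and the number at least 2-fold higher (3) was 1 with scaling to the 75th percentile, 0 with normexp, 7 with slide as random block and 0 to 16 when 1 array was left out, with 0 to 2 at least 2-fold lower. Without the 3 arrays between the others, 0 mitotic genes passed in each comparison, and 0% (BPH+ghrelin against BPH), 0.0153% (BPH against sham) and 0.0104% (BPH+ghrelin against sham) of all genes. The correlation of arrays on a slide was negative (-0.208, -0.212 and -0.216), so that the random block lowers standard errors between slides. Causes of the other changes were not tested.

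With slide as a fixed block, the median of BPH against sham turned to -0.00726 and 22 of 44 genes were higher, compared to 37. Among the genes with values on each array, the differences that turned were those of Aurka (-0.45), Birc5 (-0.20), Bub1 (-0.0356), Ccna2 (-0.0416), Cks2 (-0.26), Espl1 (-0.31), Incenp (-0.23), Kif11 (-0.0432), Kif20a (-0.16), Kif22 (-0.35) and Plk1 (-0.10). This fit compares both groups only through BPH+ghrelin arrays. In the same comparison Foxm1 turned to 0.00993 with normexp and 0.13 with slide as random block, and Bub3 to 0.10 with the mean of probes. When 1 array was left out, the differences of BPH to sham ranged from -0.0232 to 0.58 for Aurka, -0.14 to 0.79 for Birc5, -0.24 to 0.67 for Cks2, -0.22 to 0.16 for Foxm1, -0.13 to 1.03 for Kif20a, -0.0439 to 0.52 for Kif22, -0.0252 to 0.63 for Ndc80 and -0.0235 to 0.93 for Ttk. In BPH+ghrelin against sham, Cks1b (-0.03) turned to 0.0217 with scaling to the 75th percentile and to 0.30 with the mean of probes, and ranged from -0.30 to 0.29 when 1 array was left out. In BPH+ghrelin against BPH, Smc2 ranged from -0.0652 to 0.29.

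No pairing of the arrays by the replicate numbers in the labels was seen. The correlation of deviations from the group means was -0.127 to 0.269 between arrays of the same number in different groups. Between arrays of different numbers and groups it was -0.298 to 0.31. With the replicate block, 0, 0 and 3 mitotic genes passed in BPH+ghrelin against BPH, BPH against sham and BPH+ghrelin against sham, compared to 0.101%, 1.24% and 2.41% of all genes.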
